A study of Homo sapiens with 9 samples.

Results

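The genes described here are those of the SLC25 family, the mitochondrial carriers, in a lung cancer cell line in which the transcription factor FOXN3 had been knocked down. They were chosen by name alone: protein-coding rows whose Ensembl identifier maps to a symbol made of SLC25A and a number. Of 34789 rows in the deposited table, 48 met this rule. Of these, 37 had a mean of at least 1 FPKM (fragments per kilobase of exon, scaled to the sample's total) over the 9 samples and were tested, and 11 were not. No expression value entered the rule, but the family was proposed with earlier results of these data known, so counts over its members are a description.

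Mitochondrial carriers are small proteins of the inner mitochondrial membrane, built from a repeated pair of membrane helices, that exchange one metabolite for another. They bring ADP, phosphate, carboxylic acids, amino acids, acylcarnitines, cofactors and iron into the matrix and let ATP, citrate and other products out. They are encoded in the nucleus, made in the cytosol and inserted into the membrane through the TOM70 receptor and the TIM22 complex.

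RNA was sequenced from H1299, an established human line derived from a non-small cell lung carcinoma and without p53. The 9 samples form 3 groups of 3: cells given a control siRNA (siControl), cells given the FOXN3 siRNA siFOXN3-1, and cells given another, siFOXN3-2, all at 50 nM with Lipofectamine RNAiMAX. The labels call siControl cells WT and the other cells FOXN3 knockdown. A knockdown leaves part of the message in place, and all groups come from 1 line. For siFOXN3-2 replicates 2 and 3 the treatment field reads siFOXN4 and siFOXN5, although their titles read siFOXN3-2, and the siFOXN3-2 labels describe their transfection reagent differently from the other labels. The second siRNA and that reagent therefore cannot be told apart as labelled, and leading results are also given with siFOXN3-2 replicate 1 alone. The labels do not say whether replicates were separate cultures, and the p-values then cover the spread among these samples alone. In bulk RNA, fewer cells that use a gene and less of its RNA per cell cannot be told apart.

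FOXN3 stood at 4.85, 5.25 and 5.00 FPKM in siControl, at 1.28, 1.24 and 1.16 after siFOXN3-1, and at 0.858, 0.958 and 1.06 after siFOXN3-2. It was low in every sample labelled as knockdown. Sequencing depth lay between 17.0 and 19.6 M fragments. Markers of the line's mixed epithelial and mesenchymal state were unequal. KRT8 stood at 84.7 to 130.0 FPKM, KRT18 at 163 to 239 FPKM and VIM at 443 to 572 FPKM. CDH2 lay at 13.8 to 17.3 FPKM, and FN1 at 2.71 to 6.18 FPKM with its highest values in siControl. KRT19 stayed at or under 0.450 FPKM, and EPCAM and CDH1 at or under 0.280 FPKM. The lung marker NKX2-1 reached 0.650 FPKM, and the alveolar marker SFTPB was at or near 0. Markers of immune and endothelial cells did not pass 0.349 FPKM in any sample. Of the fibroblast markers, COL1A2 had a mean of 0.0155 FPKM in siControl and of 0.0194 FPKM after siFOXN3-1, against 0.916 FPKM after siFOXN3-2, DCN stayed at or under 0.0844 FPKM, and COL1A1 ranged from 0.441 to 2.18 FPKM with its highest values after siFOXN3-2. What part the genes of this list have in the results was not tested. Mitochondrially encoded genes held 13.2 to 14.2% of the summed FPKM in siControl, 7.27 to 9.02% with siFOXN3-1 and 7.36 to 9.07% with siFOXN3-2. The part of this shift in the results was not tested beyond the scalings given with the counts.

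In siControl the carrier genes together held 0.402% ± 0.00354 of the summed FPKM of the table (SD, n = 3). Their levels were very unequal. SLC25A5 (308 ± 12.4 FPKM) and SLC25A6 (290 ± 11.4 FPKM), both ADP/ATP carriers, stood first and did not differ beyond their spread. The citrate carrier SLC25A1 (116 ± 6.11 FPKM) and the phosphate carrier SLC25A3 (68.1 ± 3.24 FPKM) followed, and these 4 genes made up 71.3% ± 0.664 of the family's FPKM. SLC25A39 and SLC25A13 came next, at 28.1 ± 0.571 and 26.8 ± 1.08 FPKM, and their samples overlapped. Of the tested members, 23 had a siControl mean of 5 to 50 FPKM and 10 a lower one, the lowest being SLC25A26 at 1.36 ± 0.0859 FPKM.

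**Figure D1:**
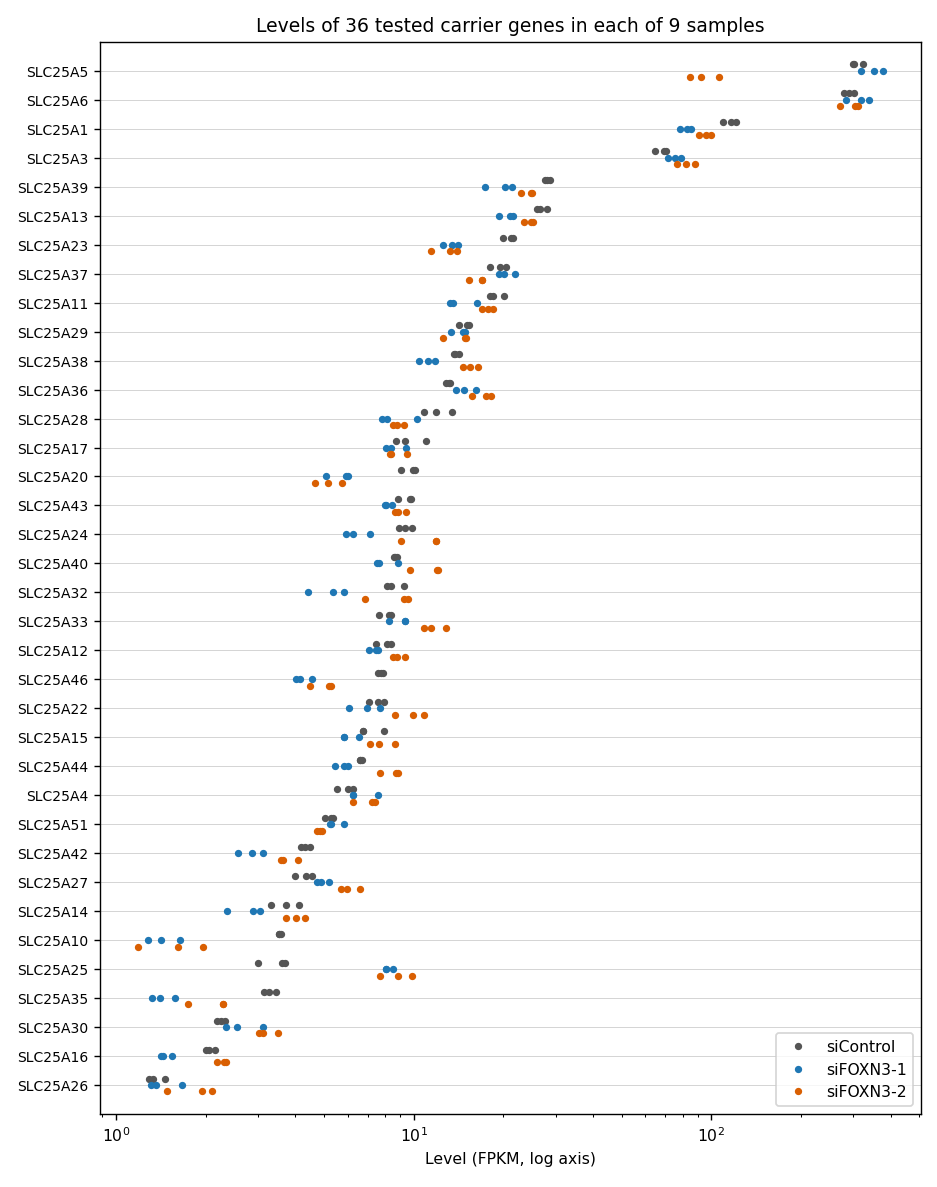
Level of 36 of the 37 tested carrier genes (FPKM, log axis) in the 9 samples, ordered by the siControl mean, with siControl in grey, siFOXN3-1 in blue and siFOXN3-2 in orange. SLC25A5 is the gene whose siFOXN3-2 samples (84.9 to 106 FPKM) lie far to the left of the others. SLC25A25 is the one whose knockdown samples lie farthest to the right of siControl for both siRNAs. Those of SLC25A3, SLC25A27, SLC25A30 and SLC25A36 also lie to the right without overlap, by less.

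With siFOXN3-1, 2 carrier genes rose, 18 fell and 17 did not pass the threshold (limma on log2 of FPKM + 1, adjusted p under 0.05 over 12707 genes). Of all tested genes, 19.3% rose and 45.3% fell in that comparison. The median log2 change of the carriers, -0.18, was close to that of all tested genes, -0.17. With siFOXN3-2, 10 carriers rose, 10 fell and 17 did not pass, against 24.1% higher and 39.2% lower among all tested genes, and the medians were 0.02 for carriers and -0.10 for all. The shares of carriers called in either direction, 54.1% in both comparisons, stood beside 64.7% and 63.3% of all tested genes. Samples of the knockdown and control groups did not overlap for 24 and 27 of the 37 carriers, against 71.1% and 68.2% of all tested genes.

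These splits depended on scaling. When samples were scaled by median ratios, which brings the median of all tested genes to 0.00 in both comparisons, 11 carriers were higher and 12 lower with siFOXN3-1, and 15 were higher and 8 lower with siFOXN3-2. All tested genes then split into 3979 higher and 3939 lower with siFOXN3-1 and 3912 higher and 3948 lower with siFOXN3-2. Of the 18 falls with siFOXN3-1, 11 were called under each of 5 scalings (the deposited FPKM, median ratios, quantiles, and a common sum with or without mitochondrially encoded genes). The other falls, of SLC25A11, SLC25A14, SLC25A16, SLC25A28, SLC25A38, SLC25A43 and SLC25A44, were lost under at least 1 of them. Of the 10 rises and 10 falls with siFOXN3-2, 9 and 8 were called under all 5, the exceptions being the rise of SLC25A26 and the falls of SLC25A37 and SLC25A39. The rise of SLC25A25 with siFOXN3-1 held under all 5 and that of SLC25A36 did not. With siFOXN3-2 replicate 1 alone, 8 of the 20 calls with siFOXN3-2 were lost, those of SLC25A1, SLC25A26, SLC25A28, SLC25A30, SLC25A36, SLC25A37, SLC25A39 and SLC25A40.

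**Figure D2:**
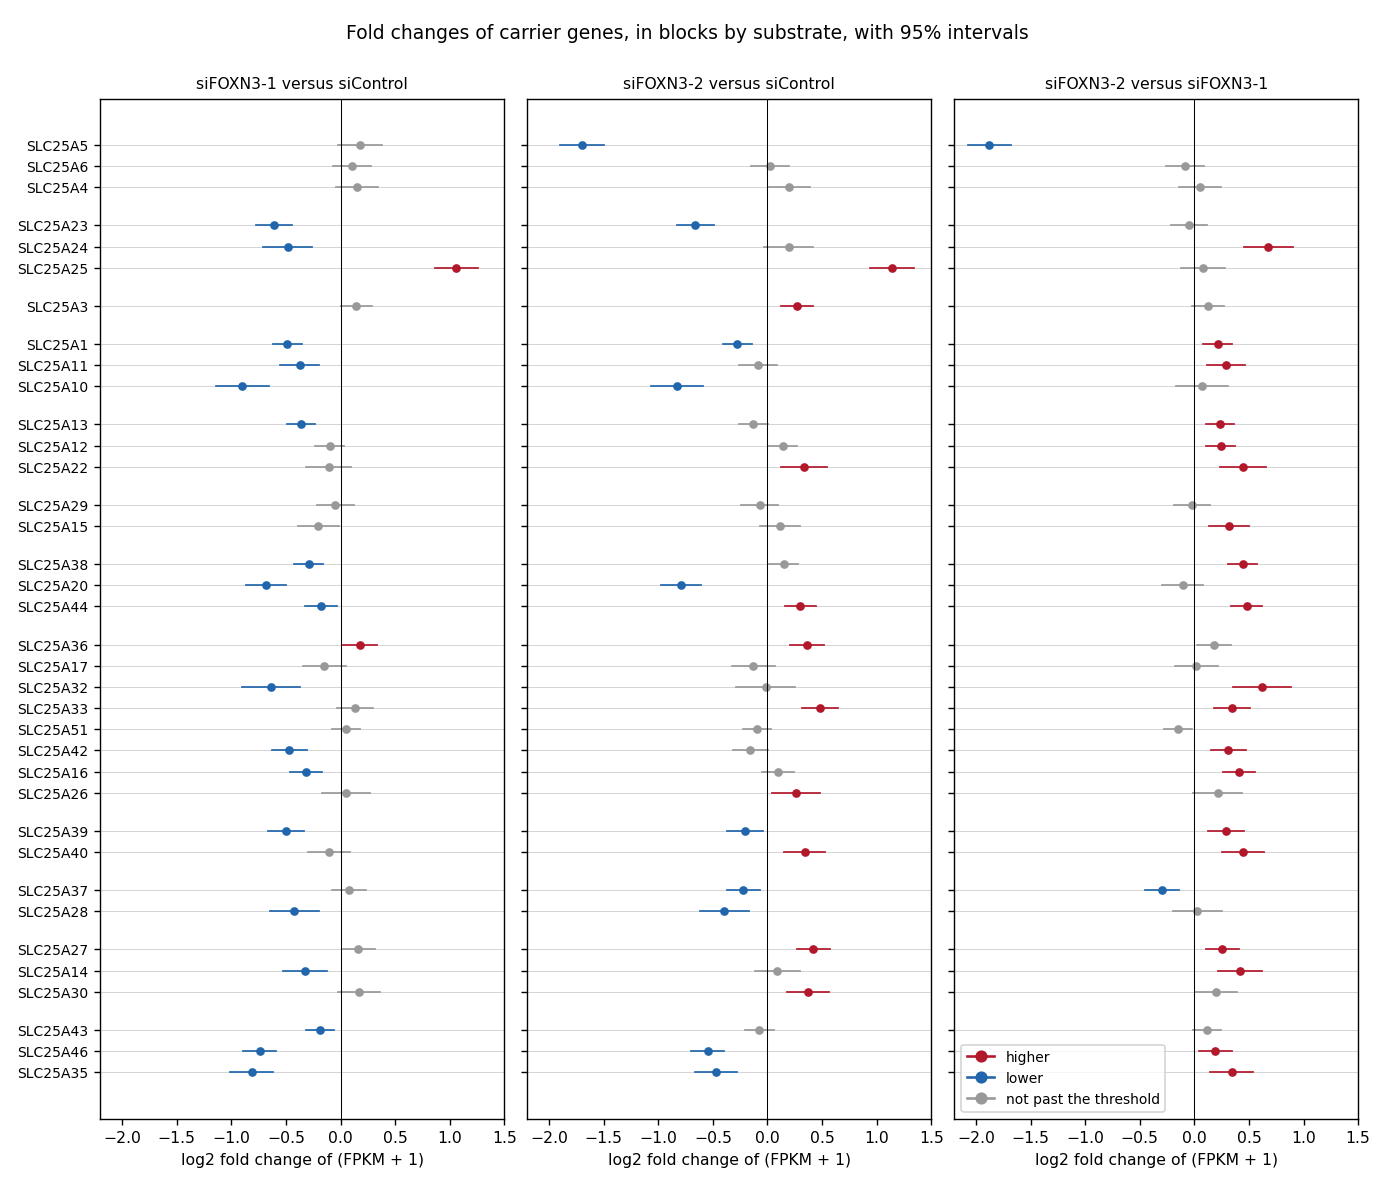
log2 fold change of FPKM + 1 with its 95% interval for 36 of the 37 tested carrier genes in 3 comparisons, in blocks by substrate, with genes past the threshold in red (higher) or blue (lower). SLC25A5 reaches -1.70 and -1.88 in the comparisons with siFOXN3-2, SLC25A25 stands near 1 with either siRNA, and most other changes are under 0.9 in size; small changes lose or gain a call under other scalings.

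The ADP/ATP carriers exchange matrix ATP for cytosolic ADP and are the exit through which ATP made in mitochondria reaches the cell. Tissues differ in the paralog they use: SLC25A4 is the form of heart and skeletal muscle, SLC25A5 is typical of dividing cells, SLC25A6 is broadly expressed and SLC25A31 is best known from testis. The 3 expressed genes have coding sequences of equal length, 894 bases, that match at 78.7% of positions for SLC25A5 and SLC25A6, 77.2% for SLC25A4 and SLC25A5 and 77.9% for SLC25A4 and SLC25A6. The longest stretch shared without a mismatch was 29 bases, between SLC25A5 and SLC25A6. The following window, bases 19 to 108 of each coding sequence in GENCODE 29 (GRCh38), is shown because the result turns on telling these paralogs apart; capitals mark the 21 of 90 positions at which the 3 genes are not all alike. The windows lie at chr4:185143391-185143480 (plus strand), chrX:119468534-119468623 (plus strand) and chrX:1391902-1391991 (minus strand).
SLC25A4: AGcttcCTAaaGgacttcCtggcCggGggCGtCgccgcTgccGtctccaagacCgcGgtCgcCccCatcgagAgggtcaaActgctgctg
SLC25A5: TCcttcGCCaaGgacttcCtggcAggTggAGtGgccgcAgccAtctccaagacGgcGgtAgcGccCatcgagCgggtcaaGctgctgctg
SLC25A6: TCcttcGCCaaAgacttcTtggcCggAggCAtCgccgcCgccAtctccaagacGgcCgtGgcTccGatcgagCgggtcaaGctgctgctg
Pseudogene rows named for SLC25A5 (6) did not pass 0.284 FPKM in any sample, and those named for SLC25A6 (3) did not pass 0.198 FPKM.

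SLC25A5 (ENSG00000005022, X, 119468400 to 119471319, plus strand) fell with siFOXN3-2 and not with siFOXN3-1. Its level was 322, 301.9 and 299 FPKM in siControl, 318, 351 and 378 with siFOXN3-1, and 84.9, 106 and 92.1 with siFOXN3-2. The siFOXN3-2 samples lay far under all others, at 30.7% of the siControl mean, while the siFOXN3-1 samples overlapped with siControl. The log2 change was -1.70 with siFOXN3-2 (SE 0.09, adjusted p = 2.56e-07), which placed the gene at rank 21 from the lowest of 12707. With siFOXN3-1 it was 0.18 (95% interval -0.02 to 0.38, adjusted p = 0.103), a value that was higher and past the threshold with median-ratio scaling (0.39) and -0.09 after quantile normalization. Set against each other, the siRNAs differed by -1.88 (SE 0.09, adjusted p = 3.51e-06), the lowest value of all 12707 genes in that comparison. With siFOXN3-2 replicate 1 alone the values were -1.85 against siControl and -2.02 against siFOXN3-1, with adjusted p of 1.51e-05 and 1.81e-04. Both differences with siFOXN3-2 were called in all of 25 alternative analyses. The exons of SLC25A5 overlap the opposite-strand gene SLC25A5-AS1 over 15.1% of their length, and the libraries do not mark strand.

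SLC25A6 (ENSG00000169100, X, 1386152 to 1392724, minus strand) showed no such difference. Its level was 289, 278 and 301 FPKM in siControl, 283, 318 and 337 with siFOXN3-1 and 310.1, 304 and 269.9 with siFOXN3-2, with overlap between all groups. Its log2 change was 0.11 with siFOXN3-1 (95% interval -0.07 to 0.28, adjusted p = 0.252) and 0.02 with siFOXN3-2 (95% interval -0.15 to 0.20, adjusted p = 0.809). Its direction depends on scaling: quantile normalization gave -0.24 and -0.18, both past the threshold, and median ratios gave 0.32, past the threshold, and 0.14. SLC25A4 had 5.92 ± 0.370, 6.69 ± 0.777 and 6.96 ± 0.605 FPKM in siControl, siFOXN3-1 and siFOXN3-2 (SD, n = 3 each), with log2 changes of 0.15 and 0.20 that did not pass the threshold as deposited and were higher and past it with median ratios (0.33 and 0.30). SLC25A31 was listed at 0 in 7 of the 9 samples and did not pass 0.124 FPKM.

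The mix of ADP/ATP carrier messages differed in the siFOXN3-2 samples, and a share within a sample does not depend on a scaling factor for that sample. SLC25A5 made up 49.3 to 52.2% of the FPKM of SLC25A4, SLC25A5 and SLC25A6 in siControl, 52.0 to 52.4% with siFOXN3-1 and 21.1 to 25.5% with siFOXN3-2. SLC25A6 held 46.8 to 49.7%, 46.6 to 47.1% and 72.8 to 77.1% in the same order. The share of SLC25A4 was 0.942 to 1.01% in siControl, 0.923 to 1.05% with siFOXN3-1 and 1.70 to 1.84% with siFOXN3-2. In siControl and siFOXN3-1 samples the 2 abundant paralogs were close to equal, and in siFOXN3-2 samples SLC25A6 led.

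**Figure D3:**
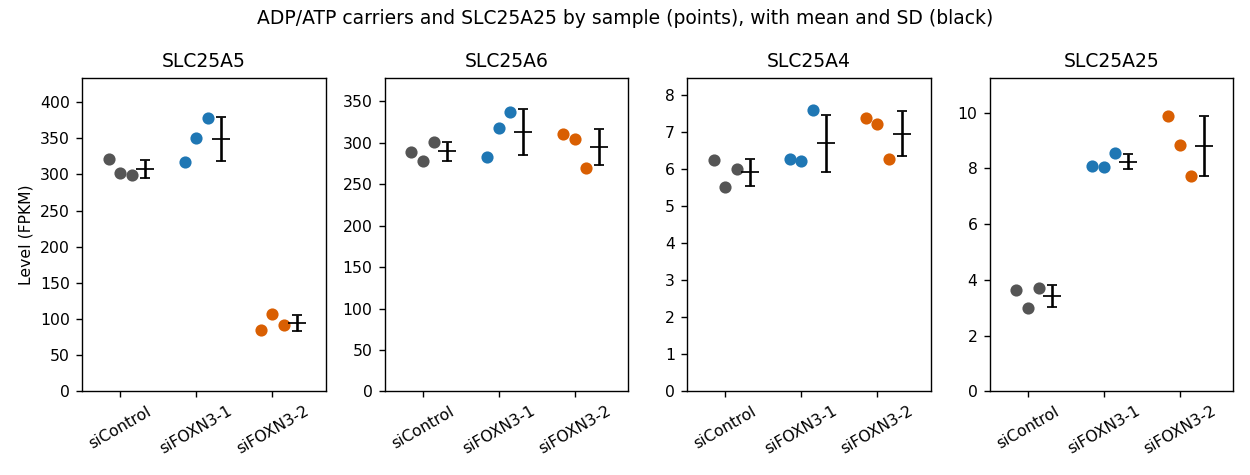
Level (FPKM, axes from 0) of SLC25A5, SLC25A6, SLC25A4 and SLC25A25 in each sample, with the group mean and SD in black (n = 3). The siFOXN3-2 samples of SLC25A5 lie between 84.9 and 106 FPKM under all other samples, those of SLC25A6 overlap with the other groups, and both knockdown groups of SLC25A25 lie above siControl.

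The promoters of the paralogs are shown because FOXN3 is known to bind a forkhead motif and a distinct motif with the core GACGC. They are taken from RefSeq (GRCh38.p14), 300 bases around each annotated start, at chrX:119468194-119468493 (plus strand) for SLC25A5 and chrX:1392064-1392363 (minus strand) for SLC25A6, with GACGC or its reverse complement in capitals.
SLC25A5: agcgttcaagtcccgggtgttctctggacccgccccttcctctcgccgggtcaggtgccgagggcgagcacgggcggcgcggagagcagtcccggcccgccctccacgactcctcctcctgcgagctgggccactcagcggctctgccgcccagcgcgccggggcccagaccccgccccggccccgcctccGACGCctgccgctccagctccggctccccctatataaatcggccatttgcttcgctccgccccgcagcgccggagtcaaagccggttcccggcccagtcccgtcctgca
SLC25A6: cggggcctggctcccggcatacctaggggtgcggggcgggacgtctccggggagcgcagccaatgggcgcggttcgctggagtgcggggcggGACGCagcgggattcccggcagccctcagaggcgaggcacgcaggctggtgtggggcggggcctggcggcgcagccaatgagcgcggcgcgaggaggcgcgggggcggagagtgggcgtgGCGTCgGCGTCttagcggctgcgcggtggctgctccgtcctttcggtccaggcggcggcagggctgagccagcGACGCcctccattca
SLC25A5 held 1 match and SLC25A6 held 4, and whether FOXN3 binds either promoter was not tested. Among the tested carriers, 24 of 39 promoters (61.5%), of 31 matched genes, held GACGC on either strand, against 51.3% of 12806 promoters of all tested protein-coding genes. The forkhead motif GTAAACA was in 0 of the 39 and in 2.59% of the 12806. The ETS-type motif CCGGAAGT was in 4 (10.3%, against 8.04%), and the E-box CACGTG in 8 (20.5%, against 9.66%). None of the 4 motifs contains another, and a match describes letters in this window only.

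The ATP-magnesium/phosphate carriers SLC25A23, SLC25A24 and SLC25A25 exchange adenine nucleotides for phosphate and set the size of the matrix nucleotide pool. They are activated by calcium through their EF-hand domains. Their genes moved in different directions. SLC25A25 was at 3.62, 2.99 and 3.69 FPKM in siControl, 8.10, 8.06 and 8.54 with siFOXN3-1 and 9.86, 8.83 and 7.71 with siFOXN3-2. All knockdown samples lay above all siControl samples. It rose by 1.06 (SE 0.09, adjusted p = 4.44e-06) with siFOXN3-1 and by 1.14 (SE 0.09, adjusted p = 3.01e-06) with siFOXN3-2 on the log2 scale, the largest rise among the carriers with either siRNA, and its 95% interval between the siRNAs ran from -0.12 to 0.28. Voom on recovered reads gave 1.27 and 1.35, and siFOXN3-2 replicate 1 alone gave 1.296 (adjusted p = 7.07e-05). Exons of 3 opposite-strand genes, NAIF1, SLC25A25-AS1 and AL360268.1, overlap 16.2% of its exons.

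SLC25A23 fell with either siRNA. It stood at 19.9, 21.5 and 21.2 FPKM in siControl, 14.1, 13.4 and 12.6 with siFOXN3-1 and 13.9, 11.4 and 13.2 with siFOXN3-2. Its log2 change was -0.61 (adjusted p = 5.42e-05) and -0.66 (adjusted p = 3.34e-05), and siControl samples did not overlap with the others. SLC25A24 had 9.38 ± 0.454, 6.42 ± 0.624 and 10.9 ± 1.61 FPKM in siControl, siFOXN3-1 and siFOXN3-2 (SD, n = 3 each). It fell with siFOXN3-1 (-0.49, adjusted p = 0.00166), and the value for siFOXN3-2, 0.19, did not pass the threshold (95% interval -0.03 to 0.42; 0.30 and past it with median ratios). SLC25A41, a short relative without the calcium-binding part, was at 0.714 to 0.960 FPKM in siControl and 0.233 to 0.428 FPKM in the knockdown samples. It was not tested, with mean read numbers of 26.3, 9.3 and 9.7 in the 3 groups.

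SLC25A3, which brings in the phosphate that ATP synthase needs, stood at 70.5, 64.4 and 69.4 FPKM in siControl, 71.5, 75.4 and 79.3 with siFOXN3-1 and 82.5, 87.9 and 76.9 with siFOXN3-2. It rose with siFOXN3-2 (0.27, SE 0.07, adjusted p = 0.00458). With siFOXN3-1 the value was 0.15 (upper 95% bound 0.29, adjusted p = 0.0748), and 0.35 and past the threshold with median ratios.

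Of the carboxylate carriers, all 3 tested members fell with siFOXN3-1 and 2 fell with siFOXN3-2. The citrate carrier SLC25A1, which exports the citrate used for lipid synthesis, was at 121, 116 and 109 FPKM in siControl, 78.3, 83.0 and 85.1 with siFOXN3-1 and 99.4, 95.7 and 90.9 with siFOXN3-2. The 3 groups did not overlap, with siFOXN3-2 samples in between. The log2 change was -0.49 (adjusted p = 5.34e-05) with siFOXN3-1, -0.28 (adjusted p = 0.00242) with siFOXN3-2 and 0.21 (adjusted p = 0.0202) between the siRNAs, the last lost with median ratios. The dicarboxylate carrier SLC25A10, which exchanges malate or succinate for phosphate, was at 3.59, 3.52 and 3.53 FPKM in siControl, 1.42, 1.28 and 1.63 with siFOXN3-1 and 1.95, 1.61 and 1.18 with siFOXN3-2. It fell by 0.90 (adjusted p = 4.55e-05) and by 0.83 (adjusted p = 8.70e-05) on the log2 scale of FPKM + 1, and voom on recovered reads gave -1.301 and -1.19. With siFOXN3-2 replicate 1 alone its fall was 0.62 (adjusted p = 0.00204). Reads of SLC25A10 are uncertain, because 46.6% of its exon length is shared on the same strand with AC139530.2. The oxoglutarate carrier SLC25A11, part of the malate-aspartate shuttle, had 18.9 ± 1.11, 14.4 ± 1.70 and 17.7 ± 0.772 FPKM in siControl, siFOXN3-1 and siFOXN3-2 (SD, n = 3 each). A fall was called with siFOXN3-1 (-0.38, adjusted p = 0.00200), which was lost with median ratios (-0.18). With siFOXN3-2 the value was -0.09 (95% interval -0.26 to 0.09), or 0.02 with median ratios. SLC25A21, the oxodicarboxylate carrier, stayed at or under 0.262 FPKM.

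Among carriers of acidic amino acids, the aspartate/glutamate exchangers SLC25A12 (aralar) and SLC25A13 (citrin) complete the malate-aspartate shuttle. SLC25A13 was at 26.0, 26.5 and 28.0 FPKM in siControl, 21.0, 21.6 and 19.4 with siFOXN3-1 and 23.4, 24.7 and 25.2 with siFOXN3-2. It fell with siFOXN3-1 (-0.36, adjusted p = 3.42e-04), and its value with siFOXN3-2 was -0.13 (95% interval -0.26 to 0.00, adjusted p = 0.0750). SLC25A12 was at 7.99 ± 0.482, 7.37 ± 0.255 and 8.90 ± 0.417 FPKM in siControl, siFOXN3-1 and siFOXN3-2 (SD, n = 3 each), and neither siRNA passed the threshold against siControl, although siFOXN3-2 did with median ratios (0.24). The glutamate carrier SLC25A22 stood at 7.06, 7.95 and 7.61 FPKM in siControl, 6.08, 6.99 and 7.73 with siFOXN3-1 and 10.8, 8.65 and 9.94 with siFOXN3-2. Only its siFOXN3-2 samples lay apart from siControl, with a rise of 0.34 (adjusted p = 0.00990). Its near relative SLC25A18 stayed at or under 0.316 FPKM. The carriers of basic amino acids did not pass the threshold with either siRNA: the ornithine carrier SLC25A15 had changes of -0.20 (adjusted p = 0.0530) and 0.11, and SLC25A29, which carries arginine and lysine, -0.05 and -0.07, turning to 0.15 and 0.03 with median ratios.

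SLC25A20, which moves acylcarnitines into the matrix for fatty acid oxidation, fell with either siRNA. Its level was 10.1, 9.93 and 9.07 FPKM in siControl, 6.02, 5.92 and 5.07 with siFOXN3-1 and 4.66, 5.17 and 5.75 with siFOXN3-2. The knockdown samples lay under all siControl samples, at 53.6% of the siControl mean for siFOXN3-2. Its log2 change was -0.68 (adjusted p = 4.91e-05) and -0.79 (adjusted p = 1.96e-05), and was called lower in all 25 alternatives for both comparisons. The glycine carrier SLC25A38, needed for haem synthesis, had 13.9 ± 0.284, 11.1 ± 0.685 and 15.5 ± 0.887 FPKM (SD, n = 3 each, in the same order). The fall with siFOXN3-1 passed the threshold (-0.29, adjusted p = 0.00174) and was lost with median ratios (-0.10). The value of 0.15 with siFOXN3-2 did not pass the threshold (adjusted p = 0.0553), and was 0.25 and past it with median ratios.

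SLC25A44, a carrier of branched-chain amino acids, was the carrier called in opposite directions. It stood at 6.60, 6.72 and 6.61 FPKM in siControl, 5.83, 5.99 and 5.43 with siFOXN3-1 and 8.75, 7.68 and 8.86 with siFOXN3-2. The 3 groups did not overlap. It fell with siFOXN3-1 (-0.18, adjusted p = 0.0301) and rose with siFOXN3-2 (0.30, adjusted p = 0.00214). The fall did not hold with median ratios (0.00 to 2 decimals) or quantiles (0.01), nor without any 1 of 4 samples, while the rise and the difference between the siRNAs, 0.48 (SE 0.06, adjusted p = 4.64e-04), held under all 5 scalings.

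The largest class, carriers of nucleotides and cofactors, had 9 tested members, of which 1 rose and 3 fell with siFOXN3-1, and 3 rose and 0 fell with siFOXN3-2. With median ratios these counts were 3 and 3, and 4 and 0. The pyrimidine nucleotide carriers SLC25A33 and SLC25A36 supply the precursors of mitochondrial DNA and RNA. SLC25A33 was at 8.41, 7.64 and 8.24 FPKM in siControl, 9.31, 8.28 and 9.36 with siFOXN3-1 and 10.8, 12.9 and 11.5 with siFOXN3-2. It rose with siFOXN3-2 (0.48, SE 0.07, adjusted p = 2.82e-04), and its samples there lay above all others. With siFOXN3-1 its value was 0.13 (adjusted p = 0.139), and 0.32 and past the threshold with median ratios. SLC25A36 was at 12.9, 13.2 and 13.1 FPKM in siControl, 16.2, 14.8 and 13.8 with siFOXN3-1 and 15.7, 17.5 and 18.2 with siFOXN3-2. It rose with siFOXN3-2 (0.36, adjusted p = 0.00128), and its rise with siFOXN3-1 (0.18, adjusted p = 0.0461) was lost when most single samples were left out, with a range of 0.12 to 0.23.

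Of the cofactor carriers, SLC25A42, which brings in coenzyme A, and SLC25A32, linked to folate and flavin transport, fell with siFOXN3-1 and did not pass the threshold with siFOXN3-2. SLC25A42 was at 4.17, 4.30 and 4.48 FPKM in siControl, 2.56, 3.11 and 2.86 with siFOXN3-1 and 4.07, 3.63 and 3.59 with siFOXN3-2. Its log2 change was -0.47 (adjusted p = 2.44e-04) and -0.16 (95% interval -0.32 to 0.00). SLC25A32 was at 8.16, 8.38 and 9.30 FPKM in siControl, 5.81, 5.37 and 4.41 with siFOXN3-1 and 6.84, 9.27 and 9.58 with siFOXN3-2, with changes of -0.64 (adjusted p = 0.00100) and -0.02, but 69.7% of its exon length is shared on the same strand with AC012213.5. SLC25A16, at 2.07 ± 0.0704 FPKM in siControl, fell with siFOXN3-1 (-0.31, adjusted p = 0.00187) to 1.47 ± 0.0631 FPKM. SLC25A26, the carrier of the methyl donor S-adenosylmethionine, rose with siFOXN3-2 (0.26, adjusted p = 0.0403) from 1.36 ± 0.0859 to 1.84 ± 0.315 FPKM. That call was kept in 12 of 24 alternative analyses, with a range of 0.08 to 0.44, and the value was 0.08 (adjusted p = 0.632) with siFOXN3-2 replicate 1 alone. The NAD+ carrier SLC25A51 and the peroxisomal carrier SLC25A17 did not pass the threshold with either siRNA, with changes between -0.15 and 0.05; with median ratios SLC25A51 passed it with siFOXN3-1 (0.23).

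The glutathione carriers SLC25A39 and SLC25A40, close paralogs that import glutathione into the matrix, differed from each other. SLC25A39 was at 28.7, 27.6 and 28.1 FPKM in siControl, 17.3, 20.2 and 21.4 with siFOXN3-1 and 25.0, 24.7 and 23.0 with siFOXN3-2. It fell with siFOXN3-1 (-0.50, adjusted p = 1.89e-04) and with siFOXN3-2 (-0.21, adjusted p = 0.0307), the second lost with median ratios (-0.10). SLC25A40 was at 8.64, 8.77 and 8.58 FPKM in siControl, 8.85, 7.51 and 7.63 with siFOXN3-1 and 9.74, 12.1 and 12.0 with siFOXN3-2. Its siFOXN3-2 samples lay above all others, with a rise of 0.34 (adjusted p = 0.00570) that was 0.15 (adjusted p = 0.206) with siFOXN3-2 replicate 1 alone, and its change with siFOXN3-1 was -0.11 (95% interval -0.30 to 0.08).

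The iron importers are mitoferrin 1, SLC25A37, best known from developing red cells, and mitoferrin 2, SLC25A28, which serves other cells. SLC25A28 was at 10.8, 11.8 and 13.4 FPKM in siControl, 8.11, 7.81 and 10.3 with siFOXN3-1 and 8.81, 8.52 and 9.27 with siFOXN3-2. It fell with siFOXN3-1 (-0.43, adjusted p = 0.00388) and siFOXN3-2 (-0.40, adjusted p = 0.00591). The first call was lost with median ratios (-0.24). The second was lost with siFOXN3-2 replicate 1 alone, at a similar size (-0.41). SLC25A37 was at 18.0, 19.5 and 20.5 FPKM in siControl, 21.9, 20.1 and 19.3 with siFOXN3-1 and 16.9, 15.3 and 17.0 with siFOXN3-2. It fell with siFOXN3-2 (-0.22, adjusted p = 0.0178), a call lost without any 1 of 3 samples (range -0.27 to -0.17) and with median ratios (-0.11), and its value with siFOXN3-1 was 0.08 (95% interval -0.08 to 0.23; 0.28 and past the threshold with median ratios).

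Among relatives of the uncoupling proteins within the SLC25A symbols, SLC25A27 (UCP4), SLC25A30 and SLC25A14 (UCP5), the first pair rose with siFOXN3-2. SLC25A27 was at 4.0, 4.55 and 4.35 FPKM in siControl, 5.19, 4.74 and 4.86 with siFOXN3-1 and 6.62, 5.98 and 5.69 with siFOXN3-2. Its change was 0.42 with siFOXN3-2 (adjusted p = 4.05e-04) and 0.16 with siFOXN3-1 (adjusted p = 0.0599; 0.33 and past the threshold with median ratios). SLC25A30 rose with siFOXN3-2 by 0.37 (adjusted p = 0.00348), from 2.25 ± 0.0666 to 3.21 ± 0.256 FPKM. With siFOXN3-1 it stood at 2.67 ± 0.401 FPKM, above siControl without overlap. The change there was 0.17 (adjusted p = 0.105), and 0.32 and past the threshold with median ratios. Between the siRNAs the difference of SLC25A30 did not pass the threshold (adjusted p = 0.0936). SLC25A14 fell with siFOXN3-1 (-0.33, adjusted p = 0.00910), from 3.72 ± 0.391 to 2.76 ± 0.362 FPKM, and stood at 4.02 ± 0.286 FPKM with siFOXN3-2. Its fall was lost with median ratios (-0.17).

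Carriers of other or unsettled substrates held 8 members, of which 3 were tested and all 3 fell with siFOXN3-1. SLC25A46, an unusual member that sits in the outer membrane and acts in mitochondrial shape, was at 7.88, 7.58 and 7.78 FPKM in siControl, 4.55, 4.01 and 4.14 with siFOXN3-1 and 4.49, 5.29 and 5.19 with siFOXN3-2. All knockdown samples lay under siControl, with changes of -0.74 (adjusted p = 7.77e-06) and -0.55 (adjusted p = 6.53e-05). SLC25A35 was at 3.27, 3.14 and 3.45 FPKM in siControl, 1.41, 1.32 and 1.58 with siFOXN3-1 and 2.28, 1.74 and 2.29 with siFOXN3-2. It fell by 0.81 (adjusted p = 2.27e-05) and by 0.47 (adjusted p = 9.40e-04), and 33.2% of its exon length lies opposite RANGRF. SLC25A43 fell with siFOXN3-1 (-0.19, adjusted p = 0.0146), which median ratios brought to 0.00.

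The 11 members that were not tested had under 1 FPKM on average. Of these, SLC25A45 was at 0.797, 0.743 and 0.813 FPKM in siControl, 0.286, 0.293 and 0.334 with siFOXN3-1 and 0.307, 0.352 and 0.303 with siFOXN3-2, with mean read numbers of 118.0, 43.7 and 45.0. Its knockdown samples lay under all siControl samples, as did those of SLC25A41, and no test is given for either in the comparisons above. SLC25A53, SLC25A18, SLC25A21 and SLC25A34 stayed at or under 0.530 FPKM. SLC25A2, SLC25A31, SLC25A47, SLC25A48 and SLC25A52 were listed at 0 in most samples.

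Summed over the family, the level was 1114, 1072 and 1100 FPKM in siControl, 1013, 1090 and 1144 with siFOXN3-1 and 882, 902 and 839 with siFOXN3-2. The siFOXN3-2 samples lay under all others, at 79.8% of the siControl mean, and the siFOXN3-1 samples overlapped with siControl. An exact two-sided permutation test gave p = 0.1 for siFOXN3-2, the smallest that 3 against 3 samples allow, and p = 0.8 for siFOXN3-1. Without SLC25A4, SLC25A5 and SLC25A6 the order was different: 486 to 497 FPKM in siControl, 406 to 420 after siFOXN3-1 and 470 to 484 after siFOXN3-2. The groups did not overlap at the deposited scaling, but siFOXN3-2 and siControl nearly touched. The log2 ratios were -0.25 with siFOXN3-1 and -0.042 with siFOXN3-2, each with p = 0.1 in the permutation test. No other scaling is given for this sum. Of the 138 FPKM of the carboxylate class in siControl, SLC25A1 alone held 116 FPKM. By class, the carboxylate carriers stood at 71.0% of siControl with siFOXN3-1 and 83.1% with siFOXN3-2, both without overlap. Carriers of other or unsettled substrates stood lower still with both siRNAs, also without overlap. With siFOXN3-2 the iron carriers also stood lower than the carboxylate carriers, without overlap with siControl. The glutathione carriers stood at 75.1% and 96.4%, the second with overlap. The ADP/ATP carriers stood at 110.5% and 65.6%, the first with overlap. The uncoupling protein relatives stood at 100.9% and 130.0%, the first with overlap. Carriers of glycine, branched-chain amino acids and acylcarnitine stood at 74.7% and 96.3%, the second with overlap. The phosphate carrier stood at 110.7% and 121%, and carriers of nucleotides and cofactors at 93.2% and 111.6%, all without overlap.

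**Figure D4:**
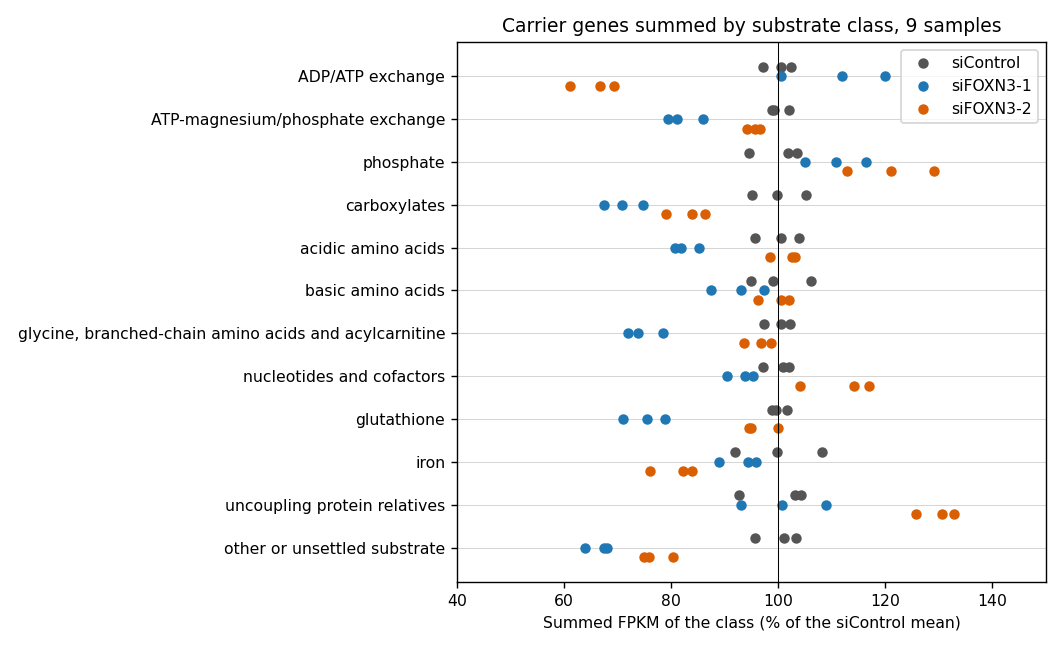
Summed FPKM of each substrate class in each sample, as a percentage of the siControl mean of that class, with siControl in grey, siFOXN3-1 in blue and siFOXN3-2 in orange. The ADP/ATP class lies lowest with siFOXN3-2 (65.6% of siControl on average) and the carboxylate class lies low with both siRNAs (71.0 and 83.1%). On average the class of other or unsettled substrates lies lower than the carboxylate class with both siRNAs, and the iron class does so with siFOXN3-2 alone. The values use the deposited scaling, and median ratios would multiply all values of a sample by 1 factor.

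Set against siFOXN3-1, the siFOXN3-2 samples had 19 carriers higher, 2 lower and 16 not past the threshold, against 25.4% higher and 10.7% lower of all tested genes (36.1% in either direction). The groups did not overlap for 23 of the 37 carriers, against 46.0% of all tested genes. The median was 0.21 for carriers and 0.08 for all. With median ratios 11 carriers were higher and 3 lower, all tested genes split into 1942 higher and 1982 lower, and the medians were 0.13 and 0.01. The largest higher values were 0.68 for SLC25A24 (SE 0.10, adjusted p = 8.15e-04), 0.62 for SLC25A32 (adjusted p = 0.00356), 0.48 for SLC25A44, 0.45 for SLC25A22 (adjusted p = 0.00502), 0.45 for SLC25A40 (adjusted p = 0.00325) and 0.44 for SLC25A38 (adjusted p = 5.80e-04), all held under 5 scalings. The lower genes were SLC25A5 and SLC25A37 (-0.30, adjusted p = 0.00842). With siFOXN3-2 replicate 1 alone, 9 carriers were higher and 1, SLC25A5, was lower. The 11 calls lost included those of SLC25A32 (0.35, adjusted p = 0.0950), SLC25A40 (0.26, adjusted p = 0.0836) and SLC25A37 (-0.25, adjusted p = 0.0920).

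Genes outside the family that bear on the carriers came from 5 lists. Relatives with other symbols were UCP2, MTCH1 and MTCH2, which all fell with siFOXN3-1 (-0.63, -0.18 and -0.25), the last 2 lost with median ratios, and of which MTCH1 fell with siFOXN3-2 (-0.32, adjusted p = 0.00254). With median ratios, 1 of these 3 was higher and 1 lower with siFOXN3-2. Of 10 genes for carrier import through TOM70 and TIM22, 0 rose and 7 fell with siFOXN3-1, 3 rose and 1 fell with siFOXN3-2, and 7 were higher and 0 lower between the siRNAs; with median ratios the first split was 1 and 2 and the second 3 and 0. Of all tested genes, 19.3% rose and 45.3% fell with siFOXN3-1, 24.1% rose and 39.2% fell with siFOXN3-2, and 25.4% were higher and 10.7% lower between the siRNAs. The median of the import genes was -0.31 with siFOXN3-1 and 0.03 with siFOXN3-2. TIMM8B, a small chaperone of the space between the membranes, had 25.9 ± 2.97, 14.5 ± 1.57 and 20.3 ± 2.76 FPKM and fell with siFOXN3-1 (-0.79, adjusted p = 1.67e-04). TIMM22, the pore of the insertion complex, fell with siFOXN3-1 (-0.47, adjusted p = 5.27e-04). TIMM9, another small chaperone, rose with siFOXN3-2 (0.35, adjusted p = 0.00517), as did the receptor TOMM70 (0.22, adjusted p = 0.0106).

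Of 15 tested other transporters of the mitochondrial membranes, 6 rose and 7 fell with siFOXN3-1, and 6 rose and 6 fell with siFOXN3-2, which became 6 and 2 with median ratios. The shares that fell, 46.7% and 40%, were near the 45.3% and 39.2% of all tested genes, and the 40% that rose in each comparison stood beside 19.3% and 24.1%. The outer membrane pore VDAC1 rose by 0.52 (adjusted p = 2.56e-05) with siFOXN3-1 and 0.39 (adjusted p = 1.86e-04) with siFOXN3-2. VDAC2 was also called higher in both. Their relative VDAC3 did not rise. Its siFOXN3-1 samples lay under all siControl samples, and its siFOXN3-2 samples overlapped with siControl. The serine carrier SFXN1 rose by 0.38 (adjusted p = 1.19e-04) and 0.67 (adjusted p = 2.96e-06). Its relative SFXN5 fell by 0.78 and 0.82.

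Of 26 enzymes that make or use carrier substrates, 6 rose and 12 fell with siFOXN3-1, 9 rose and 11 fell with siFOXN3-2, and 14 were higher and 4 lower between the siRNAs. With median ratios the first split was 10 and 9 and the last 10 and 5. The shares that fell, 46.2% and 42.3%, were near the 45.3% and 39.2% of all tested genes, and those that rose, 23.1% and 34.6%, stood beside 19.3% and 24.1%. MAT2A, which makes the S-adenosylmethionine that SLC25A26 carries, went from 70.0 ± 2.17 to 29.7 ± 2.55 and 29.2 ± 2.88 FPKM, with changes of -1.21 (adjusted p = 9.44e-07) and -1.24 (adjusted p = 9.16e-07). COASY, which completes the synthesis of the coenzyme A that SLC25A42 carries, fell by 0.77 (adjusted p = 9.37e-07) and 0.50 (adjusted p = 1.61e-05). CPT2, which acts on the acylcarnitines that SLC25A20 delivers, and OGDH, the enzyme of oxoglutarate oxidation, were also called lower in both comparisons. SHMT2, the mitochondrial serine hydroxymethyltransferase, went from 30.1 ± 1.71 to 25.7 ± 0.573 and 9.66 ± 0.610 FPKM. Its change was -0.22 (adjusted p = 0.00970, lost with median ratios) with siFOXN3-1, -1.54 (adjusted p = 4.28e-08) with siFOXN3-2 and -1.32 (adjusted p = 3.51e-06) between them. MTHFD2, of mitochondrial folate metabolism, rose by 0.59 (adjusted p = 3.84e-06) and 0.97 (adjusted p = 2.05e-07).

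Of 9 tested regulators of mitochondrial biogenesis, 1 rose and 3 fell with siFOXN3-1, and 3 rose and 4 fell with siFOXN3-2. With median ratios the first split was 2 and 0. Of all tested genes, 19.3% rose and 45.3% fell with siFOXN3-1 and 24.1% and 39.2% with siFOXN3-2, against 11.1% and 33.3%, and 33.3% and 44.4%, of these 9. TFAM, which packages mitochondrial DNA, went from 18.2 ± 1.22 FPKM to 16.1 ± 0.521 and 26.6 ± 1.83 FPKM, with a rise of 0.52 with siFOXN3-2 (adjusted p = 7.11e-05) and a fall of 0.17 with siFOXN3-1 (adjusted p = 0.0492) that was lost with median ratios. ESRRA, a nuclear receptor of energy metabolism, rose with siFOXN3-1 (0.22, adjusted p = 0.0281) and fell with siFOXN3-2 (-0.46, adjusted p = 5.72e-04), and differed between the siRNAs by -0.68 (adjusted p = 2.16e-04). GABPA, a factor that binds the ETS-type motif named above, fell with siFOXN3-1 (-0.25, adjusted p = 0.0407, lost with median ratios) and with siFOXN3-2 (-0.69, adjusted p = 1.32e-04).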

How the data were processed

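Groups were taken from the sample titles. The values were FPKM deposited by the authors, 1 table of 34789 genes and 9 samples. The submitters' processing notes name StringTie 1.3.3b, HISAT2 2.1.0 and fastp 0.14.0, with GRCh38 as the build. The annotation release is not given in the sources used here. Per the labels' protocols, NEBNext Ultra libraries were made from polyadenylated RNA of TRIzol extracts, which do not mark strand, so reads of overlapping genes cannot be assigned with certainty. More than 10% of exon length was shared on the same strand by 2 of the tested carriers and on the opposite strand by 8. FPKM are relative to each sample's total, so a change in abundant genes moves all others. Symbols were matched for 34435 rows (99.0%).

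The test scale was log2(FPKM + 1), whose pseudocount of 1 understates changes of low genes. Genes averaging 1 FPKM or more (12707, with 22082 left out) were fitted with limma 3.58.1 in R 4.3.3 (3 groups, empirical Bayes with a trend, 6 residual and 4.02 prior degrees of freedom), with two-sided tests adjusted by Benjamini-Hochberg over all tested genes at 0.05. Low FPKM were whole multiples of 1 read given GENCODE 29 exon lengths (98.2 to 98.3% of values of 1 to 50 reads, within 0.05), which gave the depth and the recovered reads. Data were simulated with 200 changed genes among 12707 and independent normal noise, for siFOXN3-1 against siControl. Changes of 0.5, 1 and 2 were recovered in 89.6, 92.5 and 98.5% of genes, and 6.03% of the calls were false. The simulation held no shift of whole samples and far fewer changed genes than the 8220 called here. Its rates therefore do not carry over to these data. Sums and figures used matplotlib 3.10.9, scipy 1.17.1, pandas 2.3.3 and numpy 2.4.6 under Python 3.11.15.

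The members and all lists were chosen with earlier results of these data known. Every member could be named with its levels. Tests were given for the ADP/ATP carriers, the 10 highest in siControl, for each siRNA the 8 largest rises and 8 largest falls called, for the siRNAs against each other the 6 largest in each direction, and members needed to give each class's calls, with other tested members added where reported; of other lists, up to 4 members with the smallest adjusted p were described by value, with further called members named.
Alternatives were the pseudocount, filters on low values, 4 scalings, other moderation, protein-coding genes only, only the compared groups, leaving out each sample, and a block for the replicate number. Voom on recovered reads and siFOXN3-2 replicate 1 alone were added after seeing the data. Of the tested carriers, 1 is not reported here, nor are some genes of other lists; all remain in the counts.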

Additional observations from a re-analysis of the deposited data

Results flagged for a closer look

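For 21 carriers the siRNAs differed from each other, by the limma test of siFOXN3-2 against siFOXN3-1, and for 15 of them the calls against siControl also differed. The largest difference, -1.88 on the log2 scale (adjusted p = 3.51e-06), was that of SLC25A5: it fell with siFOXN3-2 in 3 of 3 samples and its samples with siFOXN3-1 overlapped with siControl. SLC25A37 (-0.30) was also called lower with siFOXN3-2 alone. SLC25A44 differed by 0.48 (adjusted p = 4.64e-04): it was called lower with siFOXN3-1 and higher with siFOXN3-2, the first of which did not hold with median ratios.

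The other carriers were higher with siFOXN3-2 than with siFOXN3-1. Called lower with siFOXN3-1 alone were 8, with differences of 0.68 for SLC25A24, 0.62 for SLC25A32, 0.44 for SLC25A38, 0.42 for SLC25A14, 0.41 for SLC25A16, 0.31 for SLC25A42, 0.29 for SLC25A11 and 0.23 for SLC25A13. Called higher with siFOXN3-2 alone were 4, with 0.45 for SLC25A22, 0.45 for SLC25A40, 0.35 for SLC25A33 and 0.26 for SLC25A27. A call with a single siRNA alone depended on scaling for some. With median ratios SLC25A33 (0.32) and SLC25A27 (0.33) were also called higher with siFOXN3-1. SLC25A13 and SLC25A42 lay under siControl with siFOXN3-2 too, without overlap. Their lack of a call there held under 3 and 4 of the 5 scalings. Median ratios called SLC25A16 (0.17), SLC25A24 (0.30) and SLC25A38 (0.25) higher with siFOXN3-2. Another 4 were called lower with both siRNAs, with 0.34 for SLC25A35, 0.29 for SLC25A39, 0.21 for SLC25A1 and 0.19 for SLC25A46. SLC25A15 (0.32) and SLC25A12 (0.24) were called with neither. Of the 19 higher differences, 11 were called under each of the 5 scalings. Those of SLC25A1, SLC25A11, SLC25A12, SLC25A13, SLC25A15, SLC25A27, SLC25A39 and SLC25A46 were not. The difference of SLC25A46 was called under 1 of the 5, and its groups overlapped. With siFOXN3-2 replicate 1 alone, 11 of the 21 calls were lost.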

How the results depend on the processing

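The analysis limits are the unknown origin of the replicates, the labels of siFOXN3-2 replicates 2 and 3, relative units and a depth that gave 9.3 to 45.0 mean reads to SLC25A41 and SLC25A45 in knockdown samples. Outside the leaving-out of single samples, 1553 values for the tested carriers reported were in the same direction and on the same side of the threshold as reported, 71 lost and 46 gained a call and 37 changed direction. Of these 37, the value of SLC25A44 with siFOXN3-1 had passed the threshold as reported and the others had not. The cause of such changes was not tested.

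The count of carriers higher with siFOXN3-1 (2 as reported) was 1 with a filter of 0.1 FPKM, without a filter, with a common sum without mitochondrially encoded genes and without a trend, 4 with a common sum, 8 with quantiles and 11 with median ratios. Leaving out single samples gave 1 to 3. Median ratios also gave 3979 genes higher with siFOXN3-1, and between the siRNAs 11 carriers and 1942 genes higher, and quantiles gave 2075 genes higher. A filter of 5 FPKM, which tests fewer genes, gave 2930 and 2475 genes lower with siFOXN3-1 and siFOXN3-2. With siFOXN3-2 replicate 1 alone, chosen after seeing the data and with 1 sample assumed to vary like the others, 6 carriers were lower with siFOXN3-2, and between the siRNAs 9 carriers were higher, 1 lower, and 1850 and 856 genes higher and lower. The summed FPKM had log2 ratios of -0.02 (siFOXN3-1) and -0.33 (siFOXN3-2), which became 0.19 and -0.21 with median ratios, -0.18 and -0.45 with quantiles, and -0.25 and -0.0418 without the ADP/ATP carriers; a common sum without mitochondrially encoded genes gave -0.39 for siFOXN3-2.

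Changes of direction with siFOXN3-1 under median ratios and then quantiles were SLC25A12 (0.0828 and 0.0742), SLC25A22 (0.0733 and 0.0728), SLC25A29 (0.15 and 0.0448) and SLC25A40 (0.0801 and 0.0561). SLC25A17 (0.0382) turned with median ratios alone, SLC25A44 (0.0143), SLC25A5 (-0.0857) and SLC25A6 (-0.24) with quantiles alone, and SLC25A51 (-0.0009) with a common sum without mitochondrially encoded genes. With siFOXN3-2 they were SLC25A32 (0.0838, 0.0459, and 0.0043 with a common sum) and SLC25A51 (0.0030 and 0.0545) under both, SLC25A11 (0.0211), SLC25A29 (0.0346) and SLC25A43 (0.0294) with median ratios, and SLC25A42 (0.0062) and SLC25A6 (-0.18) with quantiles. A common sum without mitochondrially encoded genes turned SLC25A6 (-0.0443) and replicate 1 alone SLC25A24 (-0.0413). Between the siRNAs they were SLC25A17 (-0.0663 and -0.0682), SLC25A25 (-0.0040 and -0.0077), SLC25A28 (-0.0577 and -0.0610) and SLC25A4 (-0.0315 and -0.0336) under both, SLC25A6 (0.0632) with quantiles, and SLC25A17 (-0.0309), SLC25A23 (0.0597) and SLC25A29 (0.0481) with replicate 1 alone.

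Leaving out single samples turned SLC25A26 (-0.0120 to 0.0882) with siFOXN3-1, SLC25A6 (-0.0144 to 0.0854), SLC25A29 (-0.116 to 0.0073) and SLC25A32 (-0.0976 to 0.119) with siFOXN3-2, and SLC25A10 (-0.0302 to 0.188), SLC25A17 (-0.0369 to 0.0767), SLC25A23 (-0.108 to 0.0242), SLC25A28 (-0.0397 to 0.138) and SLC25A29 (-0.0683 to 0.0567) between the siRNAs. It ended 11 calls. With siFOXN3-1 these were SLC25A36 (without any of 6 samples), SLC25A44 (4) and SLC25A43 (3), and with siFOXN3-2 SLC25A26 (6), SLC25A39 (4) and SLC25A37 (3). Between the siRNAs they were SLC25A46 (7), SLC25A1 and SLC25A11 (3 each), SLC25A27 (2) and SLC25A35 (0.31 without siFOXN3-1 replicate 2).

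Same-numbered samples did not visibly deviate together, with correlations of -0.28 to 0.053. With 3 samples per group this cannot settle whether they were handled together. With the replicate block, 1 carrier rose and 17 fell with siFOXN3-1, 9 rose and 9 fell with siFOXN3-2, and 17 were higher and 2 lower between the siRNAs.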
